A study of Mus musculus with 18 samples.

Results

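The 10 genes described here encode the proteins that release calcium into the cytosol of a heart muscle cell and clear it again: Ryr1, Ryr2, Ryr3, Atp2a2, Pln, Casq2, Cacna1c, Slc8a1, Trdn and Jph2. They were chosen by name from the 24421 genes counted in mouse left ventricle, and all 10 passed the filter on low counts that left 13859 genes for testing. The skeletal muscle isoform Ryr1 is set against the cardiac isoform Ryr2. RNA was sequenced from 18 whole left ventricles of C57BL/6 mice, 3 in each of 6 groups. Sesn2 knockout (Sesn2-KO) mice, which lack the stress-induced protein sestrin 2, were 3 to 4 months old and bred in the authors' laboratory. Aged wild-type (WT) mice were 24 to 26 months old and came from Charles River. Young WT mice were 3 to 4 months old and came from Jackson. For ischaemia-reperfusion (IR) the artery that feeds the front of the left ventricle was tied for 45 min, and blood flow was then restored for 24 h. Sham surgery opened the chest without a tie. Because each background came from its own supplier, age or genotype and source cannot be told apart in any comparison between backgrounds. Each library is 1 whole ventricle, so injured and spared muscle are mixed in it.

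In each heartbeat, calcium that enters through the L-type channel (pore subunit encoded by Cacna1c) opens the ryanodine receptor RYR2 on the facing sarcoplasmic reticulum, which releases the stored calcium that drives contraction. Junctophilin 2 (Jph2) holds the 2 membranes together, triadin (Trdn) links the receptor to calsequestrin 2 (Casq2), which binds calcium inside the store, and relaxation follows when the pump SERCA2 (Atp2a2), restrained by phospholamban (Pln), returns calcium to the store and the sodium-calcium exchanger NCX1 (Slc8a1) expels it from the cell. RYR1 is the main release channel of skeletal muscle, where it is gated by direct contact with the skeletal L-type channel, and RYR3 is a low-abundance isoform of several tissues.

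Promoter sequences were taken from RefSeq on GRCm38.p6, where 7 of the 10 members had an entry; Ryr3, Atp2a2 and Trdn had none. The 4 below are shown because they belong to the 2 receptor isoforms compared throughout and to 2 of the genes that were lower after IR. Each is the 250 bases before the annotated start, read 5′ to 3′ along the gene: Ryr1 at chr7:29125152-29125401 (minus strand), Ryr2 at chr13:12106946-12107195 (minus strand), Pln at chr10:53337436-53337685 (plus strand) and Jph2 at chr2:163397994-163398243 (minus strand). Capitals mark matches, on either strand, to the E-box CANNTG, the GC box GGGCGG or the TATA box TATAAA.
Ryr1: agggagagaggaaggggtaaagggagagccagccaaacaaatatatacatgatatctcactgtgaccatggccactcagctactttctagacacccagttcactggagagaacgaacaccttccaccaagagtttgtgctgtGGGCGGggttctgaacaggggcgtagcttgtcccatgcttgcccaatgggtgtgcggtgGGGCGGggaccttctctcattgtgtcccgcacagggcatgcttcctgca
Ryr2: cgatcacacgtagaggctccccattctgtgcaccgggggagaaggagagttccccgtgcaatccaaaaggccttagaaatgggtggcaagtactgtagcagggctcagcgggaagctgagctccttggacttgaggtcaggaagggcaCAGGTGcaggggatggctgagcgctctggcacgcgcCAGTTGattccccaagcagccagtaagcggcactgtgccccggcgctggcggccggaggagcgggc
Pln: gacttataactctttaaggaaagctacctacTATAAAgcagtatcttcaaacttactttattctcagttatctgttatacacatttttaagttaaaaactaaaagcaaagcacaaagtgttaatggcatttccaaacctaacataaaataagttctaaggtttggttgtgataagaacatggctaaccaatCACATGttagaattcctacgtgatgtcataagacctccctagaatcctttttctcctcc
Jph2: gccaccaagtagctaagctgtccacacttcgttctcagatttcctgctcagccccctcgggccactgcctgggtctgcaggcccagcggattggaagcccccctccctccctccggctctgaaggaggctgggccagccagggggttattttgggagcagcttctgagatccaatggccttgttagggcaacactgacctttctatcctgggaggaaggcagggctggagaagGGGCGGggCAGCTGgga

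The Ryr1 window held 2 GC boxes and no E-box, whereas the Ryr2 window held 2 E-boxes and no GC box. Among all 32851 windows of this length, 66.2% held an E-box and 32.7% a GC box. The Pln window, with a GC content of 32.8% against 54.8% for Ryr1 and 63.2% for Ryr2, had 1 E-box and 1 TATA box, and 12.4% of all windows held a TATA box. The Jph2 window had 1 E-box beside 1 GC box. No window of these 4 matched CATTCC, the CArG box or the MEF2 box, which occurred in 12.6%, 1.47% and 2.92% of all windows, and among the other members' windows Casq2 alone had a MEF2 box match. These matches describe letters in a window, and binding was not measured.

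The libraries held 9404531 to 14458047 counts in genes. Levels are given in CPM, the count of a gene scaled to its library's total of gene counts. Sesn2 itself had 0.304, 0.334 and 0.0740 CPM in Sesn2-KO IR hearts and 0, 0.149 and 0.362 CPM in Sesn2-KO sham hearts, against 2.50, 4.33 and 4.29 CPM in young IR hearts and 6.03, 2.75 and 2.84 CPM in young sham hearts, so the knockout label held in each library. In 1 library of every group (Sesn2-KO IR 3, Sesn2-KO sham 3, aged IR 3, aged sham 1, young IR 3 and young sham 1) long transcripts took more of the counts. In these 6 libraries the rank correlation across genes between transcript length and deviation from the group mean was 0.31 to 0.48, against -0.43 to -0.01 in the other 12. They are called length-tilted below.

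The tilt touched the members unequally. Slc8a1, with a longest transcript of 18464 bases, was on average 0.77 higher on the log2 CPM scale in the length-tilted library than in the others of its group, and Ryr2, with 16814 bases, was 0.51 higher; for both genes the length-tilted library was the highest of its group in all 6 groups. The corresponding difference was 0.30 to 0.37 for Casq2, Jph2, Cacna1c and Atp2a2, 0.16 for Ryr3 and -0.10 for Pln. Ryr1, whose transcript of 15358 bases is as long as that of Ryr3, differed by -0.02, and Trdn by -0.01. The Ryr1 counts, 3 to 30 per library, were too few to show whether Ryr1 shared the tilt. Over all genes the median difference was -0.35 for transcripts of up to 1 kb and 0.23 for those above 8 kb. What made these libraries differ was not tested.

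**Figure D1:**
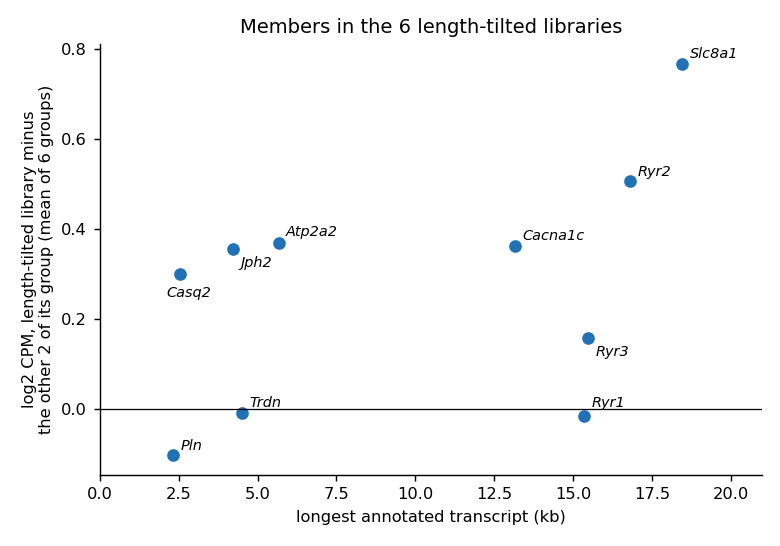
Difference in log2 CPM between the length-tilted library and the other 2 libraries of its group, averaged over the 6 groups (vertical axis), against the longest annotated transcript in kb (horizontal axis), 1 point per member. Slc8a1 and Ryr2 lie highest at 0.77 and 0.51, while Ryr1, of similar length but with only 3 to 30 counts per library, lies at -0.02.

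Per kilobase of transcript, the store-refilling pair stood highest. Pln averaged 1807 and Atp2a2 1076 CPM per kb over the 18 libraries, and their ranges of 1370 to 2201 and 692 to 1492 overlapped, although Pln exceeded Atp2a2 within every library. Casq2 followed at 403 CPM per kb, with a range of 280 to 502 that touched neither neighbour. Jph2 (129), Trdn (104) and Ryr2 (69.9 CPM per kb) had overlapping ranges, and Slc8a1 (23.2) and Cacna1c (19 CPM per kb) overlapped each other. The highest Slc8a1 value, 40.2, just passed the lowest Ryr2 value, 39.2 CPM per kb. Ryr3 averaged 0.162 and Ryr1 0.0865 CPM per kb, and these too overlapped. Of the 3 receptor genes, Ryr2 was higher than the other two in every library. The ventricular label held in the markers, where the summed level of 9 cardiomyocyte genes (Myh6, Actc1, Tnnt2 and others) was 34260 to 48190 CPM over the libraries.

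Ryr1 was the 1 member whose level separated the backgrounds. It had 3.04, 2.09 and 1.78 CPM in Sesn2-KO IR hearts and 2.20, 1.79 and 1.74 CPM in Sesn2-KO sham hearts. Aged IR hearts had 1.07, 1.06 and 0.960 CPM and aged sham hearts 2.01, 2.15 and 1.40 CPM, while young IR hearts had 0.416, 0.541 and 0.477 CPM and young sham hearts 0.491, 0.471 and 0.243 CPM. All 12 Sesn2-KO and aged libraries lay above all 6 young libraries. The counts behind these values were small, from 3 to 30 per library, and summed to 79 in Sesn2-KO IR, 78 in Sesn2-KO sham, 35 in aged IR, 73 in aged sham, 17 in young IR and 16 in young sham hearts. In order of the group means, Sesn2-KO IR (2.30 ± 0.66 CPM, SD, n = 3) came first, then Sesn2-KO sham (1.91 ± 0.253), aged sham (1.85 ± 0.397), aged IR (1.03 ± 0.0605), young IR (0.478 ± 0.0623) and young sham (0.402 ± 0.138). The 3 highest groups overlapped one another, as did the 2 young groups, and aged IR hearts stood between them without overlap.

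**Figure D2:**
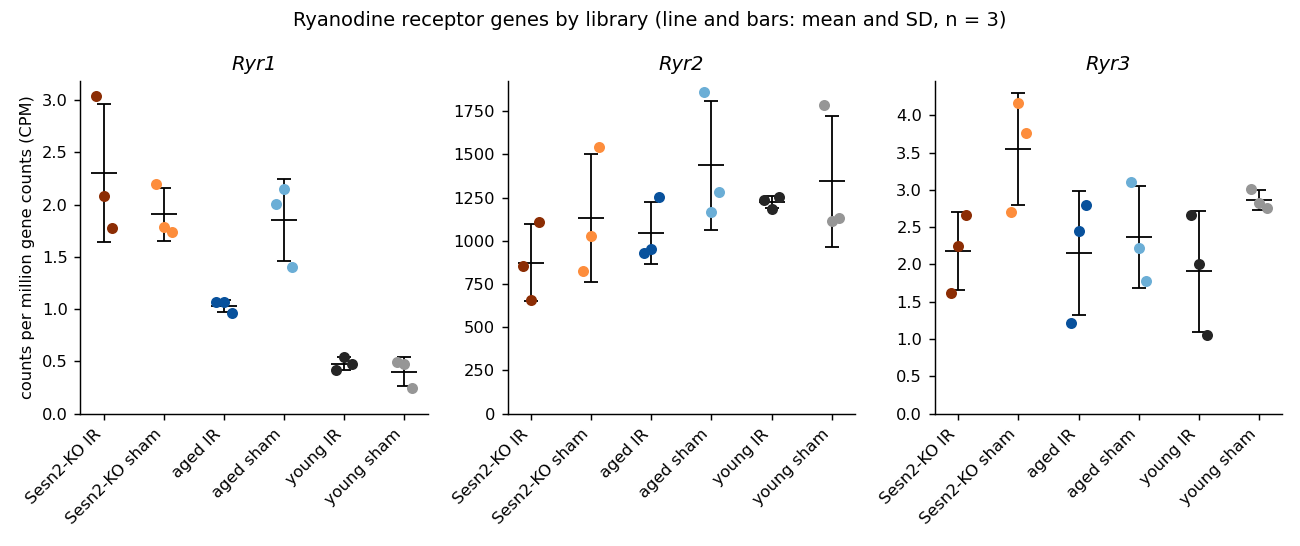
CPM of Ryr1, Ryr2 and Ryr3 in each library (points) with the group mean and SD (horizontal mark and bars, n = 3), 1 panel per gene with its own linear axis from 0. Ryr1 is above 0.9 CPM in all Sesn2-KO and aged libraries and below 0.6 CPM in all young ones. For Ryr2 and Ryr3 the ranges of the Sesn2-KO, aged and young libraries overlap, although some pairs of single groups do not.

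The differences in Ryr1 were tested across all genes with edgeR's quasi-likelihood test, with Benjamini-Hochberg adjustment and a gene called at an adjusted p below 0.05; a value after ± on the log2 scale is a standard error. Ryr1 was higher in Sesn2-KO than in young sham hearts by 2.21 ± 0.32 on the log2 scale (adjusted p = 0.00108). It was 1 of the 10 members called in that comparison, in which 5.11% of all genes tested were called and 3.32% were called higher. Between Sesn2-KO and young IR hearts the difference was 2.20 ± 0.32 (adjusted p = 0.0061), again the 1 member called, with 0.433% of genes called and 0.31% higher. In aged against young sham hearts it was 2.18 ± 0.32 (adjusted p = 0.00775), where 0.152% of genes were called, 0.144% higher; these were 21 genes, and Ryr1 ranked eighth by p. In aged against young IR hearts the estimate was 1.13 ± 0.34 without a call (adjusted p = 0.8, unadjusted p = 0.00583), in a comparison with 0.0649% of genes called. These comparisons share young libraries, so they are not independent of each other.

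The call in Sesn2-KO against young sham hearts was kept under every alternative run, with adjusted p = 0.0458 at its highest without the 6 length-tilted libraries, which leave 2 per group. The aged against young sham call was lost there (2.30, adjusted p = 0.344), without young sham 3 (1.95, adjusted p = 0.0651) and without aged sham 2 (2.07, adjusted p = 0.0535). The Sesn2-KO against young call in IR hearts was lost without the length-tilted libraries alone (2.36, adjusted p = 0.0606). The Ryr1 locus, chr7:29003344-29125179 on the minus strand of GRCm38, also spans genes annotated on the opposite strand, among them Gm26604. The library kit was stranded, but the strand setting of the counting is not given in the sources used here, and reads from the opposite strand were not separated.

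Within a library the ratio of Ryr1 to Ryr2 counts does not depend on library size, and it gave the same order of backgrounds. Ryr1 counts came to 0.355%, 0.317% and 0.161% of Ryr2 counts in Sesn2-KO IR hearts and 0.266%, 0.174% and 0.112% in Sesn2-KO sham hearts. In aged IR hearts they were 0.115%, 0.112% and 0.0767% and in aged sham hearts 0.108%, 0.184% and 0.110%, while young IR hearts had 0.0338%, 0.0457% and 0.0381% and young sham hearts 0.0275%, 0.0422% and 0.0215%. No Sesn2-KO or aged library reached down to the young range, and Sesn2-KO and aged ranges overlapped. Pooled over the 3 libraries of a group, the ratio was 0.253% (exact 95% interval 0.200% to 0.315%) in Sesn2-KO IR, 0.168% (0.133% to 0.210%) in Sesn2-KO sham, 0.0986% (0.0687% to 0.137%) in aged IR, 0.130% (0.102% to 0.163%) in aged sham, 0.0393% (0.0229% to 0.0629%) in young IR and 0.0299% (0.0171% to 0.0485%) in young sham hearts. These intervals cover counting error only.

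Exact two-sided permutation tests of the log2 ratio, with labels exchanged within sham and within IR, compared 6 libraries with 6. The ratio was 6.33-fold higher in Sesn2-KO than in young hearts (exact p = 0.005, adjusted over the 3 ratio tests 0.0075) and 3.37-fold higher in aged than in young hearts (exact p = 0.005, adjusted 0.0075), where 0.005 is the smallest p that the 400 arrangements allow. Leaving out any 1 library kept the log2 difference between 2.51 and 2.84 for Sesn2-KO against young and between 1.62 and 1.88 for aged against young hearts. These ratios reuse the Ryr1 counts tested above and also carry differences in Ryr2. Against young hearts, Ryr2 differed on the log2 scale by -0.24 in Sesn2-KO sham and -0.52 in Sesn2-KO IR hearts. In aged hearts the Ryr2 values were 0.11 in sham and -0.19 in IR, and none of these was called. Between IR and sham hearts, with labels exchanged within each background, the log2 ratio differed by 0.21 (exact p = 0.387). The ratio was lowest in the length-tilted library of Sesn2-KO IR, Sesn2-KO sham, aged IR and aged sham hearts. In aged sham hearts this was by little, 0.108% beside 0.110% in aged sham 3. Ryr2 counts followed the length tilt, while Ryr1 counts, 3 to 30 per library, were too few to show whether Ryr1 shared it. Without the 6 length-tilted libraries the log2 differences were 2.97 for Sesn2-KO and 1.88 for aged against young hearts. The exact p was 0.0556 for each, the smallest that 36 arrangements allow.

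**Figure D3:**
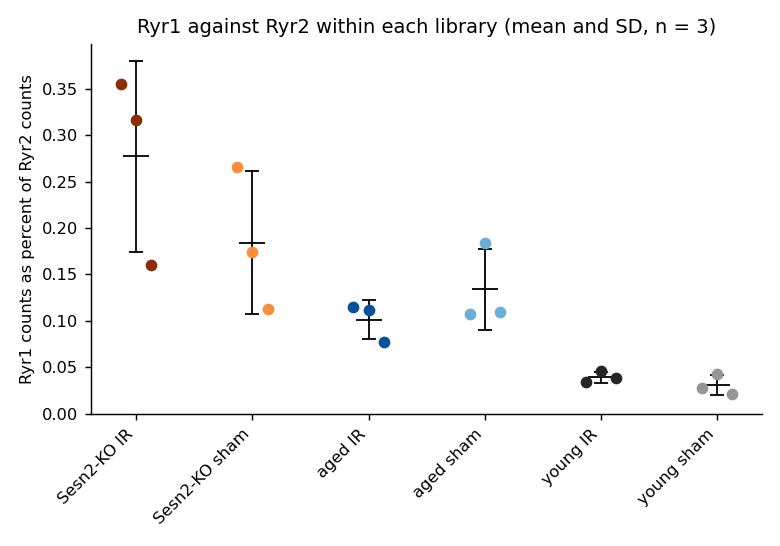
Ryr1 counts as a percent of Ryr2 counts in each library (points), with the group mean and SD (horizontal mark and bars, n = 3), on a linear axis from 0. Sesn2-KO libraries span 0.112% to 0.355%, aged libraries 0.0767% to 0.184% and young libraries 0.0215% to 0.0457%.

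Skeletal muscle markers were low in the counts but not all near 0. Over all 18 libraries together, the fast skeletal myosin genes Myh1, Myh2 and Myh4 had 7, 7 and 4 counts, Actn3 had 73, Pvalb 103, Atp2a1 203, Mylpf 258, Tnnt3 345, Tnni2 706 and Casq1 1960 counts. The summed level of a list of 10 skeletal markers was 14.8 to 21 CPM in Sesn2-KO IR hearts, 12.8 to 17.1 in Sesn2-KO sham, 8.19 to 15.2 in aged IR, 12 to 15.9 in aged sham, 14.2 to 18.4 in young IR and 19.5 to 26.5 CPM in young sham hearts. In each library this sum was above the level of Ryr1. This sum is weighted to Casq1, the most abundant of the 10. Of these 10 markers 6 were tested and none was called in any comparison between backgrounds. Against young hearts, the median log2 difference of the 6 was 0.16 in Sesn2-KO sham and 0.13 in aged sham hearts. It was -0.06 in Sesn2-KO IR and -0.14 in aged IR hearts. Casq1 alone differed by -1.05 in Sesn2-KO sham and -1.43 in aged sham hearts. Casq1, the skeletal calsequestrin, averaged 7.92 ± 0.371 CPM in Sesn2-KO sham, 6.06 ± 1.83 in aged sham and 16.4 ± 6.29 CPM in young sham hearts (SD, n = 3 each). Atp2a1, the skeletal SERCA pump, averaged 0.661 ± 0.153, 1.15 ± 0.785 and 1.10 ± 0.447 CPM in the same 3 groups. The part of skeletal muscle RNA in the Ryr1 values was not tested.

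Some markers of other cells did move with the Sesn2-KO background in sham hearts. All 3 neutrophil markers were called higher in Sesn2-KO than in young sham hearts, with a summed level of 26.1 to 74.2 CPM against 4.63 to 6.17 CPM, and the macrophage marker Cd68 was higher (1.15 ± 0.32, adjusted p = 0.0461) and the endothelial marker Kdr lower (-0.73 ± 0.12, adjusted p = 0.00253). Cd68 was the 1 call among 4 macrophage markers and Kdr the 1 among 3 endothelial markers, with list medians of 0.58 and -0.38. Between Sesn2-KO and young IR hearts no marker of the 9 lists was called. The neutrophil sums there, 66 to 131 CPM in Sesn2-KO IR and 48.3 to 99.3 CPM in young IR hearts, overlapped. No marker of any of the 9 lists was called in aged against young hearts, where the neutrophil sum was 4.22 to 15 CPM in aged sham hearts. The summed level of 4 atrial genes was 899 to 1754 CPM in Sesn2-KO IR hearts and 144 to 712 CPM in young IR hearts, with 0 of 4 called. This sum is weighted to Nppa, which had 108473 counts over all libraries. The median log2 difference of the 4 genes between these IR groups was 6.09. Myl4 had 5420, Myl7 4637 and Sln 1519 counts, and 1035 of those of Sln were in Sesn2-KO IR 1. The part of these cells in the Ryr1 values was not tested.

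Ryr2, the cardiac release channel, did not separate the backgrounds. Sesn2-KO IR hearts had 857, 659 and 1106 CPM and Sesn2-KO sham hearts 827, 1025 and 1545 CPM. Aged IR hearts had 929, 954 and 1251 CPM and aged sham hearts 1864, 1166 and 1280 CPM. Young IR hearts had 1234, 1184 and 1251 CPM and young sham hearts 1784, 1116 and 1131 CPM. The 3 lowest values were those of Sesn2-KO libraries, and all 3 Sesn2-KO IR libraries lay below all 3 young IR libraries, but the log2 difference of -0.52 ± 0.25 was not called (adjusted p = 0.41). In sham hearts it was -0.24 ± 0.25 for Sesn2-KO and 0.11 ± 0.25 for aged against young hearts, with overlapping groups in both.

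Ryr3 stayed between 1.05 and 4.17 CPM in all libraries, from 11 to 56 counts each. Its group means ran from 3.55 ± 0.752 CPM in Sesn2-KO sham hearts and 2.87 ± 0.133 CPM in young sham hearts down to 1.91 ± 0.813 CPM in young IR hearts (SD, n = 3 each), and each of these groups shared values with at least 1 other. Ryr3 was not called in any of the 10 comparisons. Aven, a counted gene on the opposite strand, overlaps the Ryr3 locus.

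The other 9 members gave no call between backgrounds. For Sesn2-KO against young hearts their log2 differences ran from -0.31 (Casq2 and Jph2) to 0.39 (Slc8a1) in sham and from -0.52 (Ryr2) to 0.40 (Slc8a1) in IR hearts. For aged against young hearts they ran from -0.26 (Ryr3) to 0.26 (Cacna1c) in sham and from -0.19 (Ryr2) to 0.25 (Slc8a1) in IR hearts. The narrowest intervals belonged to Trdn and Pln: in aged against young sham hearts the 95% interval was -0.31 to 0.27 for Trdn and -0.31 to 0.29 for Pln on the log2 scale. Those of Slc8a1 (-0.59 to 0.99) and Ryr3 (-0.98 to 0.47) leave room for changes approaching 2-fold. The median over the 10 members was -0.22 in Sesn2-KO and 0.07 in aged sham hearts against young ones, beside 0.02 and -0.01 over all genes tested.

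**Figure D4:**
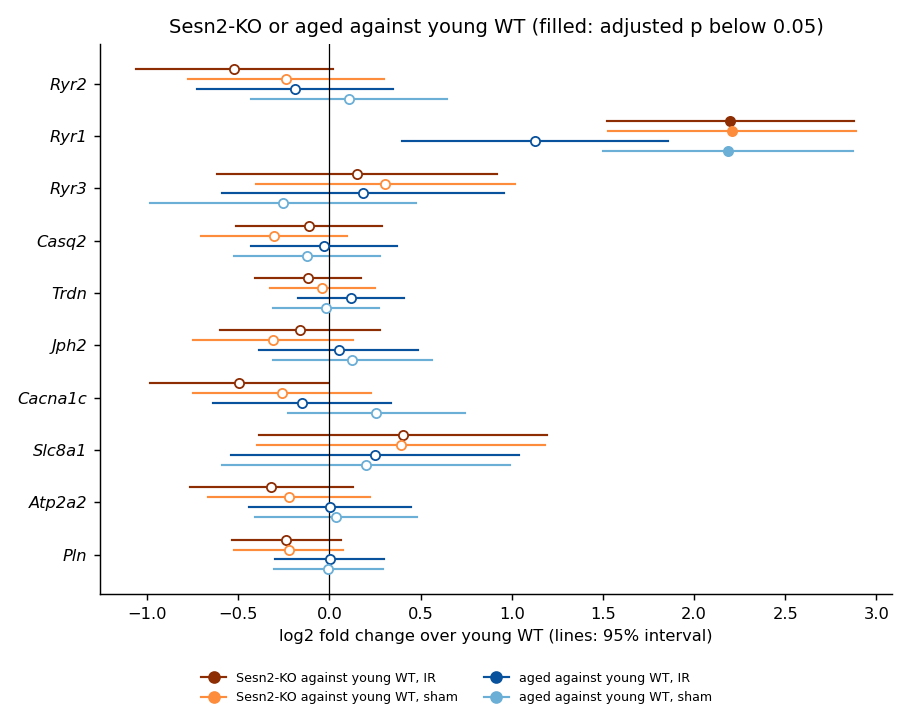
Log2 fold change of each member over young WT (points), with approximate 95% intervals (lines) that can be too narrow for Ryr1. Within a gene, Sesn2-KO IR, Sesn2-KO sham, aged IR and aged sham hearts run from top to bottom. Filled points have an adjusted p below 0.05. Ryr1 lies at 2.20, 2.21, 1.13 and 2.18, and the other members lie between -0.52 and 0.40.

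Slc8a1, the sodium-calcium exchanger gene, was the least settled of these. It had 279, 476 and 742 CPM in Sesn2-KO IR hearts, 385, 324 and 737 CPM in Sesn2-KO sham hearts and 502, 295 and 312 CPM in young sham hearts, with the length-tilted library highest in each group. With each library's trend on transcript length as a covariate, Slc8a1 was called higher in Sesn2-KO than in young sham hearts (0.68, adjusted p = 0.0198), whereas without the covariate it was not (0.39 ± 0.37, adjusted p = 0.641).

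After IR, with the 3 backgrounds averaged, the genes of calcium entry (Cacna1c), store refilling (Pln and Atp2a2) and the junction (Jph2) were lower. These are 4 of 10 members; over all genes tested 26.7% were called in this comparison, 10.9% lower and 15.8% higher. The median of the 10 members was -0.32 on the log2 scale, beside -0.004 over all genes tested. In these whole ventricles, fewer cardiomyocytes and less RNA per cardiomyocyte cannot be told apart. The summed level of the 9 ventricular cardiomyocyte markers, which is weighted to the most abundant of them, was 34260 to 40300 CPM in Sesn2-KO IR, 38260 to 40180 in Sesn2-KO sham, 37940 to 43300 in aged IR, 45500 to 48190 in aged sham, 38650 to 41530 in young IR and 47060 to 48190 CPM in young sham hearts. The IR sums lay below the sham sums in aged and in young hearts and overlapped them in Sesn2-KO hearts. The median log2 difference of the 9 markers in the mean IR response was -0.09. Of these 9 markers Myh6 (-0.50 ± 0.09, adjusted p = 0.000968) and Mybpc3 (-0.48 ± 0.07, adjusted p = 0.000306) were called lower and the other 7 were not called, and the part of cell number in the members' values was not tested. Neutrophil markers S100a8, S100a9 and Csf3r were called higher, S100a8 by 3.03 ± 0.29 (adjusted p = 6.92e-06). The fibroblast markers Col1a1 (1.09 ± 0.17, adjusted p = 0.00039) and Pdgfra (0.46 ± 0.09, adjusted p = 0.00228), the macrophage marker Cd68 (0.91 ± 0.18, adjusted p = 0.00176), the atrial marker Nppa (1.24 ± 0.32, adjusted p = 0.00965), the smooth muscle marker Cnn1 (1.12 ± 0.27, adjusted p = 0.00618) and the skeletal marker Tnnt3 (1.27 ± 0.37, adjusted p = 0.0185) were also called higher, and the endothelial marker Kdr lower (-0.44 ± 0.07, adjusted p = 0.000364). Nppa and Tnnt3 went against the middle of their lists. The median log2 difference was -1.4 over the 4 atrial genes and -0.28 over the 6 skeletal genes tested, with 1 call in each list. Within backgrounds the atrial median was -3.69 in young and -3.46 in aged hearts but 2.97 in Sesn2-KO hearts, with 0 of 4 called in each. Cd68, Cnn1 and Kdr were each the 1 call of their lists in the mean response, with list medians of 0.27, 0.25 and -0.12.

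Cacna1c, the calcium entry channel, had the largest of these changes. Over the 9 IR hearts its lowest, median and highest levels were 127, 209 and 267 CPM, against 188, 284 and 433 CPM over the 9 sham hearts. The difference was -0.55 ± 0.13 on the log2 scale (adjusted p = 0.00674) and -0.45 without the length-tilted libraries (adjusted p = 0.0703). In aged hearts the 3 IR libraries had 174, 209 and 236 CPM and the 3 sham libraries 433, 284 and 330 CPM, without overlap. The aged value of -0.74 ± 0.23 was not called by edgeR (adjusted p = 0.0593); it was called with the replicate number as a block (-0.72, adjusted p = 0.0499) and by DESeq2 (-0.76, adjusted p = 0.0186). The difference between the aged and the young response was -0.41 ± 0.33 (adjusted p = 1).

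Both genes of store refilling were lower. Atp2a2 had 3928, 5380 and 6182 CPM as the lowest, median and highest of the IR hearts, against 5075, 6857 and 8463 CPM in sham hearts. The log2 difference was -0.41 ± 0.12 (adjusted p = 0.0205), and it was -0.46, -0.40 and -0.37 in Sesn2-KO, aged and young hearts. Pln had 3198, 3735 and 4614 CPM in IR hearts, against 4092, 4704 and 5136 CPM in sham hearts. Its difference was -0.29 ± 0.08 (adjusted p = 0.0167), with -0.30, -0.28 and -0.29 in Sesn2-KO, aged and young hearts, and it was not called without the length-tilted libraries (-0.25, adjusted p = 0.161). Over all backgrounds the IR and sham hearts overlapped for both genes. Within a background every IR library lay below every sham library for Pln in all 3 backgrounds and for Atp2a2 in aged and in young hearts. Pln lies within the locus of Cep85l, a counted gene on the opposite strand.

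The balance of Pln to Atp2a2, the inhibitor relative to its pump, was similar across groups when taken per kilobase. It averaged 1.93 ± 0.607 in Sesn2-KO IR, 1.73 ± 0.469 in Sesn2-KO sham, 1.74 ± 0.287 in aged IR, 1.61 ± 0.219 in aged sham, 1.73 ± 0.153 in young IR and 1.66 ± 0.233 in young sham hearts (SD, n = 3 each), and all groups overlapped. The lowest ratio of every group was that of its length-tilted library. No test was made of it.

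At the junction, Jph2 had 319, 488 and 579 CPM as the lowest, median and highest of the IR hearts, against 402, 634 and 754 CPM in sham hearts. The log2 difference of -0.38 ± 0.12 (adjusted p = 0.0278) lost its call when any of 6 libraries was left out (Sesn2-KO IR 2, Sesn2-KO sham 3, aged IR 1, aged IR 2, aged sham 1 or young sham 1), with an adjusted p of 0.0597 at most. Casq2 had 716, 941 and 1131 CPM in IR hearts, against 767, 1222 and 1283 CPM in sham hearts. Its difference of -0.30 ± 0.11 was just outside the threshold (adjusted p = 0.0546) and inside it with DESeq2's Wald test (adjusted p = 0.0237). Trdn was the steadiest member, with 375, 451 and 526 CPM in IR hearts, against 448, 468 and 539 CPM in sham hearts, and a difference of -0.10 ± 0.08 (95% interval -0.27 to 0.06, adjusted p = 0.353).

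Among the release channels, Ryr2 had 659, 1106 and 1251 CPM as the lowest, median and highest of the IR hearts, against 827, 1166 and 1864 CPM in sham hearts. The difference of -0.34 ± 0.15 was not called (adjusted p = 0.0939; 0.0493 without Sesn2-KO sham 1). Ryr3 differed by -0.49 ± 0.20 (adjusted p = 0.082; 0.0318 without young IR 1), on 11 to 36 counts in IR and 19 to 56 in sham libraries. Ryr1 differed by -0.14 ± 0.19 (adjusted p = 0.62), and its values in the backgrounds were not alike: 0.21 ± 0.27 in Sesn2-KO, -0.84 ± 0.29 in aged and 0.22 ± 0.38 in young hearts. The aged IR libraries, at 0.960 to 1.07 CPM, lay below the aged sham libraries, at 1.40 to 2.15 CPM. That decrease was not called (adjusted p = 0.0888) except with the length covariate (adjusted p = 0.0441), and the aged response differed from the young one by -1.06 ± 0.48 without a call (unadjusted p = 0.0628, adjusted p = 1).

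The exchanger gene Slc8a1 had 231, 423 and 742 CPM in IR hearts, against 295, 385 and 737 CPM in sham hearts. The difference was -0.01 ± 0.22 (95% interval -0.46 to 0.45, adjusted p = 0.985). With the length covariate it turned to 0.28 and was called (adjusted p = 0.0414). The direction of Slc8a1 after IR therefore depended on how the length trend was handled.

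**Figure D5:**
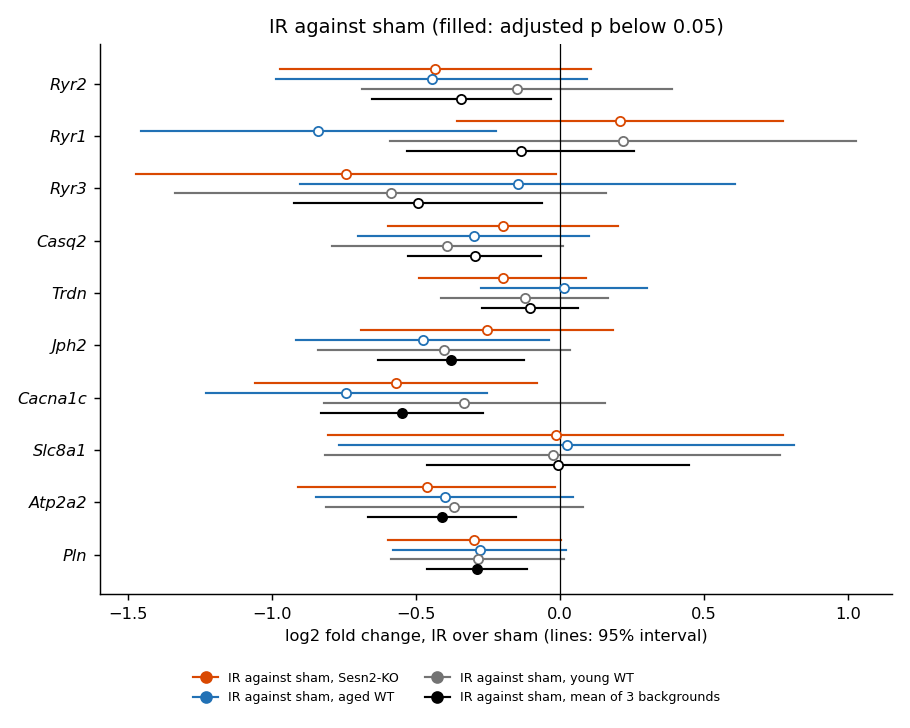
Log2 fold change of IR over sham for each member (points), with approximate 95% intervals (lines) that can be too narrow for Ryr1. Within a gene, Sesn2-KO, aged and young hearts and their mean run from top to bottom. Filled points have an adjusted p below 0.05. The mean is called for Jph2 (-0.38), Cacna1c (-0.55), Atp2a2 (-0.41) and Pln (-0.29), and no member is called within a single background.

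Within a single background no member was called by edgeR after IR, apart from the aged values of Ryr1 with the length covariate and of Cacna1c with the replicate block given above. The share of all genes called was 0% in Sesn2-KO, 7.61% in aged and 6.07% in young hearts. At an unadjusted p below 0.05 the Sesn2-KO comparison had 3 members (Ryr3, Atp2a2 and Cacna1c) and 2037 genes, while DESeq2 called 131 genes in it and 0 members. The aged comparison had 3 members at an unadjusted p below 0.05 (Ryr1, Cacna1c and Jph2), and DESeq2 called 1, Cacna1c. The young one had 0 at an unadjusted p below 0.05 and 0 by DESeq2. No member's response to IR was called different between Sesn2-KO and young hearts, where 0.0577% of genes were called, or between aged and young hearts, where 0% were called by edgeR and by DESeq2 (152 genes at an unadjusted p below 0.05).

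Other genes of calcium handling were examined as 6 lists of 71 genes, of which 69 were in the files and 62 were tested. Averaged over the backgrounds, 9 of the 62 were called higher and 13 lower after IR, beside 15.8% higher and 10.9% lower over all genes tested. Among 20 tested partners of the ryanodine receptor and junction genes, 6 were higher and 5 lower. Camk2b, a subunit of the calmodulin kinase that phosphorylates the receptor and phospholamban, was lower by 0.54 (-0.54 ± 0.07, adjusted p = 4.9e-05), and Tmem38a, which encodes the counter-ion channel TRIC-A of the store, was lower (-0.39 ± 0.08, adjusted p = 0.00186). Sri, whose product sorcin binds the receptor, was higher (0.35 ± 0.06, adjusted p = 0.000968), as was Fkbp1a, which encodes the receptor-binding immunophilin FKBP12 (0.36 ± 0.07, adjusted p = 0.00199).

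Camk2b was also called within backgrounds. It averaged 17.3 ± 0.532 CPM in aged IR hearts and 27.4 ± 3.58 CPM in aged sham hearts, and 14 ± 0.556 CPM in young IR hearts and 21.6 ± 0.984 CPM in young sham hearts (SD, n = 3 each). The differences were -0.65 ± 0.11 in aged (adjusted p = 0.00368) and -0.64 ± 0.11 in young hearts (adjusted p = 0.00437), both kept when any 1 library was left out. Without the 6 length-tilted libraries, which leaves 2 libraries per group, they were -0.54 in aged (adjusted p = 0.0934) and -0.63 in young hearts (adjusted p = 0.112). Tmem38b, which encodes the related channel TRIC-B, went the other way from Tmem38a, with 0.75 ± 0.20 in aged (adjusted p = 0.0285) and 0.82 ± 0.20 in young hearts (adjusted p = 0.0223). Each of these Tmem38b calls was kept in 1 of the 6 fits that left out 1 library, and without the length-tilted libraries the values were 0.75 (adjusted p = 0.17) and 0.86 (adjusted p = 0.211). Sri was called higher in aged hearts (0.48 ± 0.11, adjusted p = 0.0166), in 3 of 6 fits that left out 1 library and not without the length-tilted ones (0.44, adjusted p = 0.11). In all, 5 genes of the lists were higher and 4 lower in aged hearts, 1 higher and 1 lower in young hearts, and 0 of 62 in Sesn2-KO hearts (11 at an unadjusted p below 0.05, 1 by DESeq2). Over all genes 7.61% were called in aged and 6.07% in young hearts.

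Of 14 tested channel subunits and inhibitors, 1 was higher and 4 were lower after IR in the mean of the backgrounds. The T-type pore subunits Cacna1g (-1.0 ± 0.19, adjusted p = 0.00118) and Cacna1h (-0.58 ± 0.12, adjusted p = 0.00228) were lower. The skeletal L-type pore subunit Cacna1s was lower too (-0.76 ± 0.17, adjusted p = 0.00423), and averaged 16.4 ± 0.785 CPM in Sesn2-KO IR and 23.7 ± 1.68 CPM in Sesn2-KO sham hearts (SD, n = 3 each). Rrad, a small GTPase that inhibits the L-type channel, was higher (0.42 ± 0.11, adjusted p = 0.00955). Of 5 tested SERCA genes and small regulators 0 were called by edgeR, 1 had an unadjusted p below 0.05 and DESeq2 called 1; their median was -0.31.

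In the remaining lists, Atp2b2, a plasma membrane calcium pump, was lower after IR (-0.67 ± 0.20, adjusted p = 0.0233), the 1 call among 5 efflux genes tested. Its counts were small, from 3 to 34 per library. Among 9 inositol trisphosphate receptor and store-operated entry genes, Itpr1 (-0.32 ± 0.07, adjusted p = 0.00401) and the store sensor Stim1 (-0.35 ± 0.12, adjusted p = 0.0372) were lower and the entry channel Orai2 was higher (0.65 ± 0.18, adjusted p = 0.0158). Among 9 mitochondrial calcium genes, Mcub, listed under its older symbol Ccdc109b and encoding the inhibitory subunit of the uniporter, was higher (0.73 ± 0.17, adjusted p = 0.00541) and the uniporter regulator Mcur1 was lower (-0.20 ± 0.06, adjusted p = 0.0155). Of the 14 genes named for the mean IR response, 13 kept their call in all 18 fits that left out 1 library and 6 did without the 6 length-tilted libraries; the exception to the first was Stim1, called in 8 of 18.

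Between backgrounds few genes of these lists were called. In Sesn2-KO against young sham hearts, where 3.32% of all genes were called higher, 4 of 62 were higher and 0 lower: Cacna2d3, an auxiliary channel subunit (1.85 ± 0.44, adjusted p = 0.0231), Atp2b2 (1.26 ± 0.34, adjusted p = 0.0407), Rrad (0.80 ± 0.19, adjusted p = 0.0224) and Tmem38b (0.76 ± 0.20, adjusted p = 0.0365). In IR hearts, where 0.31% of all genes were called higher, 2 were higher, Cacna2d3 (3.08 ± 0.52, adjusted p = 0.0145) and Camk2b (0.60 ± 0.12, adjusted p = 0.0339). Each of these 6 calls was lost when at least 1 library was left out. Of the 6 fits that left out 1 library, Cacna2d3 was called in 2 in sham and 5 in IR hearts. Rrad was called in 2, Atp2b2 and Tmem38b in 1 each, and Camk2b in 0. Without the length-tilted libraries the Cacna2d3 calls were kept (2.33, adjusted p = 0.0425 in sham and 3.03, adjusted p = 0.0393 in IR), and those of Rrad (0.46, adjusted p = 0.264), Atp2b2 (1.02, adjusted p = 0.306), Tmem38b (0.64, adjusted p = 0.274) and Camk2b (0.61, adjusted p = 0.0906) were lost. Counts of Cacna2d3 were small, at 6, 4 and 2 in young IR and 41, 33 and 29 in Sesn2-KO IR libraries. In sham libraries they were 16, 11 and 11 in young and 82, 43 and 18 in Sesn2-KO hearts. Atp2b2 had 12, 11 and 7 counts in young sham and 23, 18 and 34 in Sesn2-KO sham libraries. In aged against young hearts 0 of 62 were called by edgeR or DESeq2 in sham or in IR, with 4 and 3 at an unadjusted p below 0.05.

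The 5 genes with profiles most like that of Ryr1 were found among 12408 candidates by the root-mean-square difference of centred log2 CPM over the 18 libraries. They were Cpne7 (0.43), Abat (0.45), Nkain2 (0.46), Efemp1 (0.47) and Atp2b2 (0.47), against a root-mean-square of 0.86 for the Ryr1 profile about its own mean. Like Ryr1 they were higher in Sesn2-KO and aged than in young hearts, which is what the choice selects, and their values are given as a description without p-values. In Sesn2-KO against young sham hearts Cpne7 differed by 1.94, Abat by 1.16, Nkain2 by 2.69 and Efemp1 by 1.69 on the log2 scale, and in aged against young sham hearts by 1.5, 1.44, 1.34 and 1.10. Of the genes nearest to Ryr2, Dennd4c, Pard3, Atpaf1 and Rnf123 lay much closer, each at 0.14, against 0.37 for the Ryr2 profile about its own mean. In the Ryr2 profile, as in that of Slc8a1, the length-tilted library is highest in all 6 groups, so these likenesses were formed across libraries that share the tilt.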

How the data were processed

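RNA of 18 left ventricles was sequenced, 3 in each of 6 groups named in the sample titles. Per the labels' protocols, stranded mRNA libraries were read as paired ends. The authors deposited 1 table of whole-number counts per gene for each sample, not normalized. The submitters' processing notes name TopHat2 and Bowtie2, HTSeq, SAMtools and FastQC, and the mouse build mm10. Versions, settings, strand option and annotation were not given in the sources used here. The lines for fragments in no gene (6.12% to 9.06%) and in more than 1 gene (0.631% to 0.759%) were left out.

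CPM was taken over each library's total of gene counts; levels per kb divide by the longest transcript in GENCODE M21 (GRCm38). The main test was that of edgeR 4.0.16, run in R 4.3.3 (filterByExpr, TMM, robust quasi-likelihood, a mean per group over all 18 libraries, 12 residual degrees of freedom, 10 contrasts including the mean IR response), adjusted over 13859 genes by Benjamini-Hochberg. These steps were tested on simulated data. Ratio tests were exact permutations. Named were the 10 members, Sesn2, up to 4 called genes per list and comparison by smallest p, and the 5 nearest profiles to Ryr1 and Ryr2 (at least 1 CPM, prior count 2); Casq1, Atp2a1 and the cell type markers come from marker lists. Genes that the rule names but the text does not are not reported here. Members and lists were chosen with earlier results of these data known. Alternatives were DESeq2 1.42.0 (size factors, Wald test), raw totals, no count filter, the replicate block, a length covariate, and leaving out each library or the 6 length-tilted ones. Replicates differed beyond sampling noise (chi-square per degree of freedom 8.48 to 48.3). The labels name no litter or batch, and p-values therefore reflect only how far these samples differ from one another.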

Additional observations from a re-analysis of the deposited data

How the results depend on the processing

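Changes of scaling moved the median of all genes by under 0.05 on the log2 scale. The number of members called after IR in aged hearts was 0 and became 1 with the DESeq2 Wald test (Cacna1c, adjusted p = 0.0186), with the length covariate (Ryr1) and with the replicate block (Cacna1c, adjusted p = 0.0499). In the mean of the backgrounds it was 4, became 2 without the 6 length-tilted libraries and was 3 to 5 with 1 library left out. In aged against young sham hearts it was 1, became 0 without the length-tilted libraries and was 0 to 1 with 1 library left out. In Sesn2-KO against young hearts it was 1, became 2 in sham hearts with the length covariate and with the replicate block plus that covariate (Slc8a1 added), and 0 in IR hearts without the length-tilted libraries. The log2 ratio of Ryr1 to Ryr2 was 1.75 for aged and 2.66 for Sesn2-KO against young hearts and became 1.88 and 2.97 without the length-tilted libraries, where the threshold cannot be reached. Slc8a1 after IR reversed to 0.28 with the length covariate and 0.30 with the replicate block plus that covariate. The cause of these changes was not tested, apart from the smaller number of samples where libraries were left out.

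Counts over all genes moved more. They were 841 in young hearts after IR (16 to 2034 over the alternatives), 1054 in aged (106 to 2128), 0 in Sesn2-KO (0 to 131) and 3700 for the mean (1278 to 5521). Between backgrounds they were 21 for aged against young sham (1 to 44), 9 in IR (1 to 33), 708 for Sesn2-KO against young sham (144 to 1675) and 60 in IR (9 to 258), and 8 for the Sesn2-KO difference in response (0 to 30). Of the 62 other calcium genes tested, DESeq2 called 6 in young and 15 in aged hearts after IR, where edgeR called 2 and 9.

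Samples share only a replicate number: same-number correlations of deviations ran from -0.27 to 0.72, and in 0 of 7 group pairs were they all over 0.1. With the replicate block the ratio tests gave the same log2 differences with an exact p of 0.0312, the smallest that 6 pairs allow, for both backgrounds, and 0.27 for IR; Casq2 became called after IR (adjusted p = 0.0381). Among the members, depth limits Ryr1 and Ryr3 most, at 3 to 56 counts per library. Counts were also small for the list genes Atp2b2 (3 to 34 per library) and Cacna2d3 (2 to 82 per library).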
